A study of Mus musculus with 4 samples.

Results

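The regions described here are peaks of histone H3 lysine 27 acetylation (H3K27ac) called in Smchd1-deleted mouse neural stem cells where the list for control cells held no peak. They were selected on measured values: peaks of the deleted list, on chromosomes 1 to 19, sharing not 1 base with any control-list peak. Each had a fold enrichment of at least 5 over the background that the peak caller set. Of 18904 peaks of the deleted list that reached this fold, 780 met the rule (4.13%, exact 95% interval 3.85 to 4.42) and 18124 overlapped a control peak. The deleted list held 91639 peaks in all and both lists together 155337. The same rule applied to the control list, against the deleted one, gave 235 of 18187 peaks (1.29%, 1.13 to 1.47), called the mirror class below. There were thus 3.32 members for each peak of the mirror class.

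H3K27ac was measured by chromatin immunoprecipitation and sequencing in 1 culture of Smchd1-deleted and 1 of control female neural stem cells, each with a whole-cell-extract input library, so every value is from 1 library and has no replicate check. Lines were made from E14.5 embryos with 1 deleted and 1 floxed Smchd1 allele, a maternal X of 129 origin carrying the Xist deltaA allele and a Castaneus paternal X; the strain field reads C57BL/6. To obtain deleted cells, part of a line received the retrovirus MSCV-Cre-puro, with puromycin from 24 h and harvest on day 7, while the control part was not transduced. Deletion, transduction and selection cannot be told apart. Groups follow the sample titles, with which other fields disagree. The antibody field of both immunoprecipitations gives trimethylation, not acetylation, of this lysine. The control library is titled fl/fl and its genotype field reads del/fl, and the control input has del/del in that field.

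Acetylation of H3 lysine 27 is placed by the acetyltransferases p300 and CBP and marks the nucleosomes that flank active promoters and enhancers. Transcription starts themselves are usually depleted of nucleosomes, so the mark often forms a peak on either side of a start. Smchd1 is a chromatin protein related to the SMC family that is known for silencing on the inactive X chromosome, at some imprinted genes and at the clustered protocadherins.

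Sequence upstream of a start is shown for 3 members, to let the strongest of them be seen beside promoters of 2 members that flank a peak of the control list. They are 3 of the 8 strongest members overlapping a promoter window. The run at Tle4 (fold 8.40) is also among the 8, lies wholly within its member and is not shown. Each run is the 250 bases before the RefSeq start on GRCm38.p6, the assembly of mm10, 5′ to 3′ on the strand of the gene. Capitals mark matches, on either strand, to the GC box (GGGCGG), the CCAAT box, or the ZBTB33 motif (TCTCGCGA). The Agbl3 run covers chr6:34780182-34780431 on the plus strand, the Zbtb2 run chr10:4388109-4388358 on the minus strand and the Wtap run chr17:12992540-12992789 on the minus strand. Most printed bases lie outside the members: of each 250, 12 are in the member at Agbl3, 0 at Zbtb2 and 31 at Wtap. The Zbtb2 and Wtap runs also reach into the control peaks that start at positions 4388264 and 12992675.
Agbl3: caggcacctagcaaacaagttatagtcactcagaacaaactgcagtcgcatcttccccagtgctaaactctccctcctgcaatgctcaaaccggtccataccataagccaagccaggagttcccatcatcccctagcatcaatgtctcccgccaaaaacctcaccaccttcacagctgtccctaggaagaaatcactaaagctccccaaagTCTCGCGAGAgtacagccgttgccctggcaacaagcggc
Zbtb2: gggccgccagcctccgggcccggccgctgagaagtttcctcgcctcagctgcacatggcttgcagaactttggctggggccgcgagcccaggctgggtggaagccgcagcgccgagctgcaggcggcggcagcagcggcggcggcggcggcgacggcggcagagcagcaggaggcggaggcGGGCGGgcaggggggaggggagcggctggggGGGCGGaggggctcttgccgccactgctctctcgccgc
Wtap: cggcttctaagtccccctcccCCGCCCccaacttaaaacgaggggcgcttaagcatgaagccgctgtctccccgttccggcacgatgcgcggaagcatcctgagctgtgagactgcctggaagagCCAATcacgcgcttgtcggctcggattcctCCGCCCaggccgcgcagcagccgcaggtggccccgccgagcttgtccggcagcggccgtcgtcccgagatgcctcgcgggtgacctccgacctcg
The Agbl3 promoter window has a GC content of 52.7% and its 2 ZBTB33 matches, 1 on each strand, overlap. The windows of Zbtb2 and Wtap are richer in G and C, at 76.3% and 69.0%, and hold 2 GC-box matches each in the printed bases. A match describes the letters and is not evidence of a bound factor.

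The member of highest fold lay at the start of Agbl3, which encodes a cytosolic carboxypeptidase that trims glutamate from tubulin tails. It spanned chr6:34780420-34781306, 887 bases, and its summit lay 122 bases downstream of the start. In the deleted list it had a pileup (the number of extended tags over the summit) of 55 and a fold of 9.40. The nearest control peak was 29944 bases away, with a fold of 5.60. The nearest deleted peak that was not a member was 29472 bases away. This was an isolated peak, with neither list showing another within 5 kb.

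Most other strong members lay beside acetylation that both cultures had. The second in rank, inside Mrgbp (a subunit of the NuA4/TIP60 acetyltransferase complex) at chr2:180582772-180583078, had a fold of 9.07 and lay 222 bases from a control peak of fold 3.8. At Tle4, a co-repressor of the Groucho family, the member at chr19:14596728-14597489 had a fold of 8.40 and lay 162 bases from a control peak of 4.04. Members at Ptov1, Zbtb2 and Wtap shared the next fold, 8.23, and the one at Ptov1 lay 1002 bases from a control peak. For Zbtb2, a zinc-finger transcription factor, the control list had its own peak 193 bases away with a fold of 9.80, above that of the member. For Wtap, a subunit of the RNA m6A methyltransferase complex, the control peak 105 bases away reached 12.11. So a member can sit next to a stronger control peak of the same promoter.

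Of the other 4 among the 10 strongest members, 3 lay within 1 kb of a control peak. Zbtb10 (a zinc-finger regulator) and Bend3 (a heterochromatin protein) each had a member of fold 8.06, at 283 and 430 bases from control peaks of 8.27 and 7.06. The member at Pds5a, a regulator of cohesin, had a fold of 7.89 and a control peak of 11.6 at 92 bases. A peak of the same fold at chr4:132270161-132270741 lay between genes, 3187 bases from a control peak. Next in rank at a gene end was Carm1, an arginine methyltransferase acting on histones and other proteins, with 7.89 and a control peak of 6.46 at 89 bases. Agbl3 alone among these members had no control peak within 5 kb. In the map of peaks around 6 members, the upper row shows the 3 strongest members without a control peak within 5 kb and the lower row the 3 strongest with one within 1 kb, among members at no more than 1 gene's end.

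**Figure D1:**
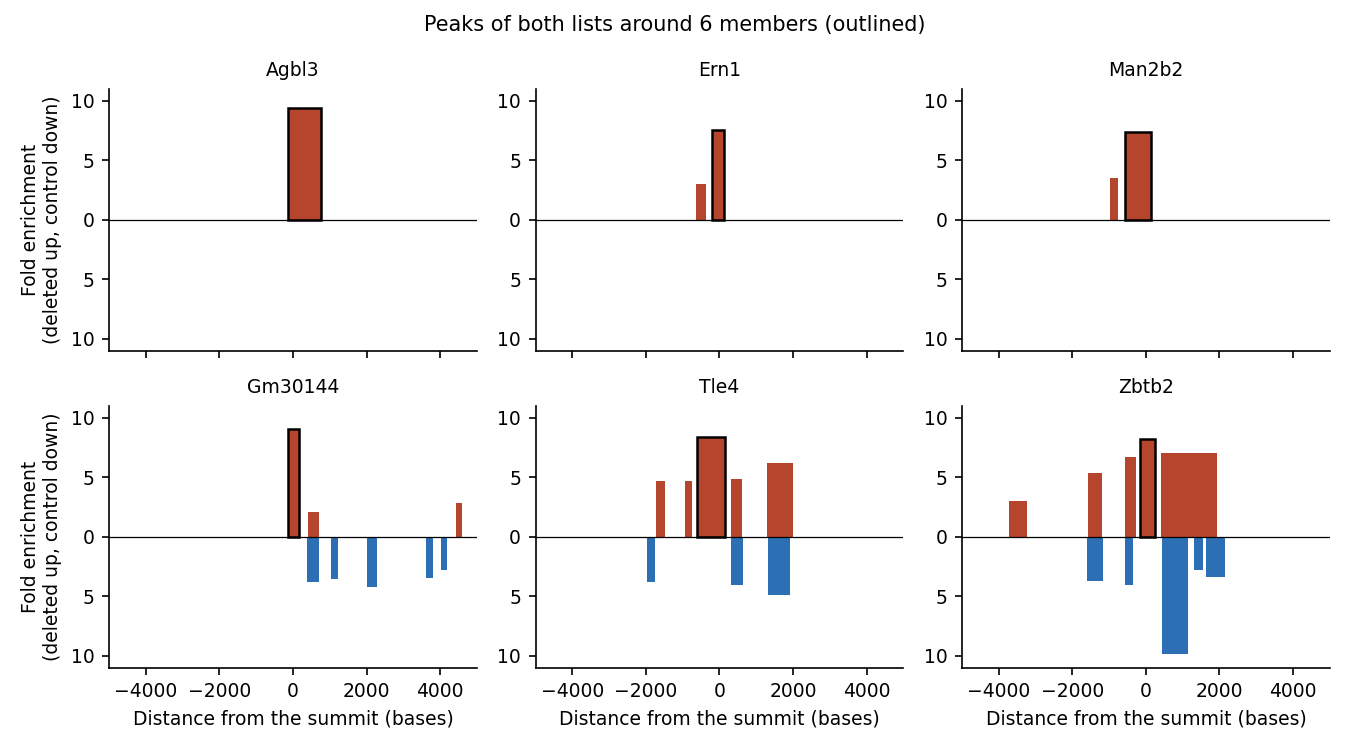
Peaks of both lists within 5000 bases of the summits of 6 members, by distance from the member's summit in bases (x). Bars above 0 are deleted peaks and bars below 0 control peaks. Height is fold enrichment over the peak caller's background, and the member is outlined (the Gm30144 panel is the member inside Mrgbp). No control peak falls in the upper panels, while the Zbtb2 panel holds 5 control peaks, the highest of fold 9.80.

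Members were weak for their class and concentrated just above the threshold. Their fold ran from 5.04 to 9.40 with a median of 5.37, and 165 of the 780 shared the lowest fold among them, 5.037, at a pileup of 29; examples are the peak in Kansl1l at chr1:66817139-66817528 and those starting at positions 81593856 and 91561113 of the same chromosome. Just outside, 22 otherwise qualifying peaks were listed at a fold of 4.99999, of which 18 had a pileup of 29 and 4 a pileup of 34. Rounded to 2 decimals they would count, for 802 members. Among those 4 are the peaks in F830045P16Rik and Gm31386 and the one at chr4:32055361-32055848. The deleted-list share without a control peak fell from 13% of 3475 peaks at folds of 5 to 5.5, through 6.74%, 2.79% and 1.01%, to 0.132% of 6068 peaks at 8 and over. In the control list the shares over the same bins were 4.46%, 1.40%, 0.305%, 0.0376% and 0, the last allowing up to 0.0737%. The deleted share was the higher in each bin, and both lists emptied of list-only peaks as fold rose. These values were used by the rule and are a description.

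**Figure D2:**
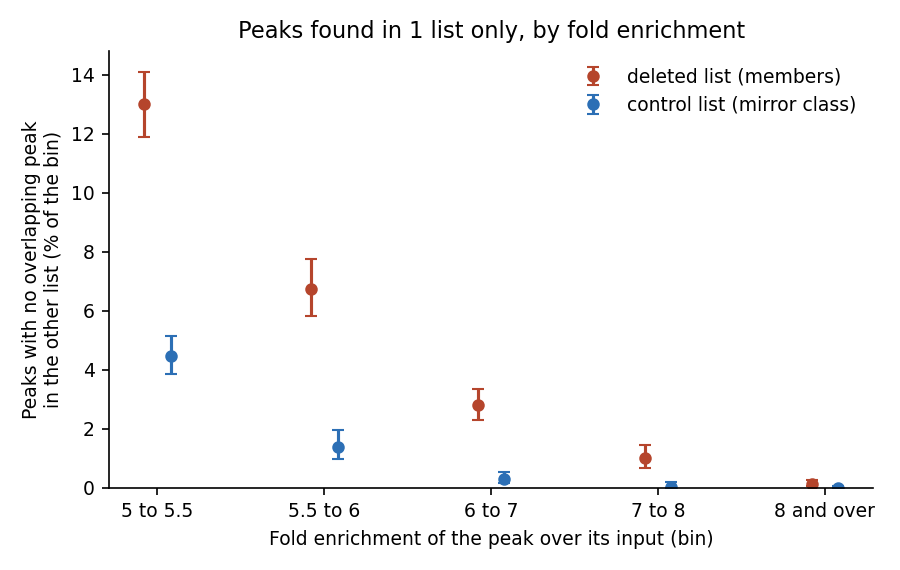
Percentage of the peaks in each fold bin that overlap no peak of the other list (y) against fold enrichment bin (x), for the deleted and the control list; points are single libraries and bars exact 95% intervals for counting error. The deleted list stands at 13% and the control list at 4.46% in the lowest bin, and both are near 0 at folds of 8 and over.

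Sequencing depth differed between the libraries and bears on these counts. After filtering, the deleted library had 54194233 tags and the control library 42277672, a ratio of 1.28. At the lowest background of its list, a control peak was called from a pileup of 12 upward, or 0.284 after division by its tags in units of 1000000. A deleted peak reached a fold of 5 at a pileup of 29, or 0.535 in the same unit. With the deleted library scaled to the depth of the control library, 597 members remained above fold 5, or 2.54 per peak of the mirror class. This scaling recomputes the fold but not the calls. Members were also short, with a median length of 317 bases (176 to 1276), against 735 in shared peaks, 600 in shared peaks weighted to the members' fold distribution and 262 in the mirror class. A short interval has fewer bases that could overlap a control peak, so length is tied to the rule. Input background was at the lowest value of the list for 760 of the 780 members (97.4%), against 87.5% of fold-weighted shared peaks and 97.0% of the mirror class.

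Most members lay beside acetylated regions that both cultures had. Of the 780, 212 lay 1 to 200 bases from the nearest control peak and 300 lay farther off but within 1000 bases, together 512 or 65.6% (62.2 to 69.0). In the mirror class 164 of 235 (69.8%) lay within 1 kb of a deleted peak. Shared peaks of the same fold distribution had a further control peak within 1 kb in 70.6%, so such neighbours were common around H3K27ac peaks in general. Of the 512 flanking members, 462 (90.2%) had a nearest control peak that itself overlapped a deleted peak. The nearest control peak of flanking members had a median fold of 5.04 in the control list. The highest deleted peak over it, where there was one, had a median of 5.79. Flanking members had 5.37, a value that the rule keeps at 5 or more. In 205 cases (40.0%) the control peak had the higher fold of member and neighbour, as at Wtap. On both sides, 169 members (21.7%) had a control peak within 1 kb and so filled a gap between control peaks.

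A smaller set of 176 members (22.6%, 19.7 to 25.7) had no control peak within 5 kb, and of these 56 had none within 50 kb. The mirror class held 34 and 7 such peaks. The number of members per mirror peak was 3.12 within 1 kb, 2.49 beyond 1 kb and within 5 kb, 4.44 from over 5 kb to 50 kb and 8 beyond 50 kb. It thus did not rise steadily with distance, and the last ratio rests on 7 mirror peaks. Members were measured to the 62955 autosomal control peaks and mirror peaks to the denser 90483 deleted ones, and the part of this density in the ratios was not tested. Of the 176 isolated members, 70 (39.8%) had within 1 kb a deleted peak that was not itself a member. Around 86 members (11%) there was no control peak and no deleted peak outside the members within 5 kb. The mirror class had 29 peaks (12.3%) with no deleted and no other control peak. Other members were not counted as neighbours, so the members at Tgfbr1 and Chd1l are among the 86 although each has a second member nearby.

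**Figure D3:**
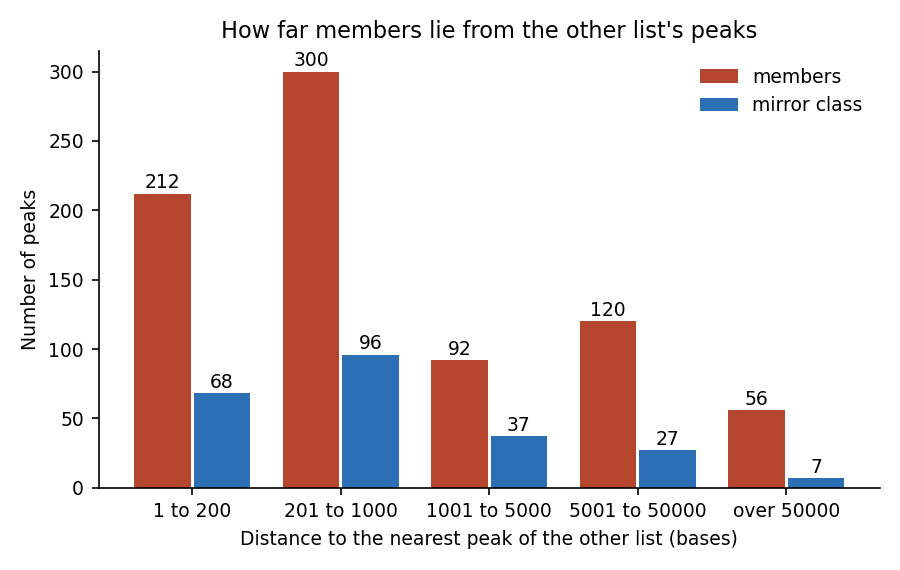
Number of peaks (y, from 0) by distance in bases to the nearest peak of the other list (x), for the 780 members and the 235 peaks of the mirror class. The classes up to 1000 bases hold 212 and 300 members, and the class over 50000 bases holds 56 members against 7 mirror peaks.

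Among isolated members, those at promoters of known genes give the clearest single loci, named here after their values were seen. Ern1, the endoplasmic reticulum stress sensor IRE1, had 7.56 at its start and no control peak for 12501 bases. Man2b2, an alpha-mannosidase, had 7.39 with 13148 bases to the control list. These members resemble Agbl3 in that the control list was empty over the whole promoter.

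Stat5b, a cytokine-activated transcription factor, had a member of 7.05 with its summit 197 bases downstream of an annotated start, and the nearest control peak was at 48101 bases. Tgfbr1, the type I receptor for TGF-beta, had a member on each side of its start. The upstream one, at chr4:47352427-47352930, had a fold of 5.54, the downstream one, at chr4:47353625-47354185, had 6.72, and the control list was empty for 119803 bases around. The Tgfbr1 start itself, at position 47353222, lay in the gap between them. Nucleosome positions were not measured. Others over 50 kb from the control list were at Pex7 (the peroxisomal import receptor, fold 6.55), Parp12 (5.71), Ttc21b (an intraflagellar transport protein, 5.71), Foxo1 (a forkhead transcription factor, 5.54) and Riox2 (5.54).

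Position relative to genes was not used by the rule. The gene table gives both ends of a gene but not its strand, so a gene end here is a start or a 3′ end. Members lay within 1 kb of a gene end in 382 of 780 cases (49.0%, 45.4 to 52.5). The share was 45.1% for shared peaks at the members' fold distribution, 62.0% for shared peaks as they were, and 26.0% (20.5 to 32.1) in the mirror class. Members and mirror peaks therefore differed in place by more than counting error, while members were near to shared peaks of the same fold. A further 131 members (16.8%) lay beyond 1 kb and within 5 kb of one, 213 (27.3%) beyond 5 kb and within 50 kb, and 54 (6.92%) farther out. Inside a gene lay 583 members (74.7%, against 76.5% and 64.3% for fold-weighted shared and mirror peaks).

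Isolated members kept to gene ends about as often. Of the 176 without a control peak within 5 kb, 82 (46.6%, 39.1 to 54.2) were within 1 kb of a gene end, against 5 of 34 isolated mirror peaks (14.7%, 4.95 to 31.1). For members within 200 bases of a control peak the share was 64.2%, and it was 18.5% beyond 1 kb and within 5 kb, the lowest of the distance classes.

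The strand-aware promoter table allowed summits to be placed against starts, for the 757 members and 228 mirror peaks on chromosomes it covers. It is not complete: the members at Zbtb10 and Ptov1 have no start there. Of the 757, 332 (43.9%) lay within 1 kb of a start and 52 (6.87%) covered one. The summit fell in the first 250 bases downstream of the start in 157 members, 20.7% (17.9 to 23.8), where the first nucleosome of a transcribed gene lies. Shared peaks at the members' fold had 11.7% there and the mirror class 4.82% (2.43 to 8.47). From 250 to 500 bases the order turned, with 4.62% of members and 8.23% of fold-weighted shared peaks. Upstream, within 1 kb, 13.7% of members compared with 13.6%.

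The same place stood out among isolated members, 42 of 170 of which (24.7%, 18.4 to 31.9) had the summit in the first 250 bases downstream. Upstream of a start within 1 kb were only 6.47% of isolated members and 32.4% were downstream. For the 250 flanking members near a start, the member was closer to the start than its control peak in 173 (69.2%, 63.1 to 74.9), the control peak was closer in 59, and it covered the start in 18. These 250 were chosen for the member lying within 1 kb of a start, a condition not put on the control peak. The choice itself favours the member as the closer peak, and the share has no reference among shared or mirror peaks. Nothing is therefore read from it. Members closer to the start include those at Wtap, with its summit at 109 bases, Bmi1 at 125 and Srd5a3 at 174. Differences in peak length between the sets, given above, move with these positions, and their part was not tested.

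**Figure D4:**
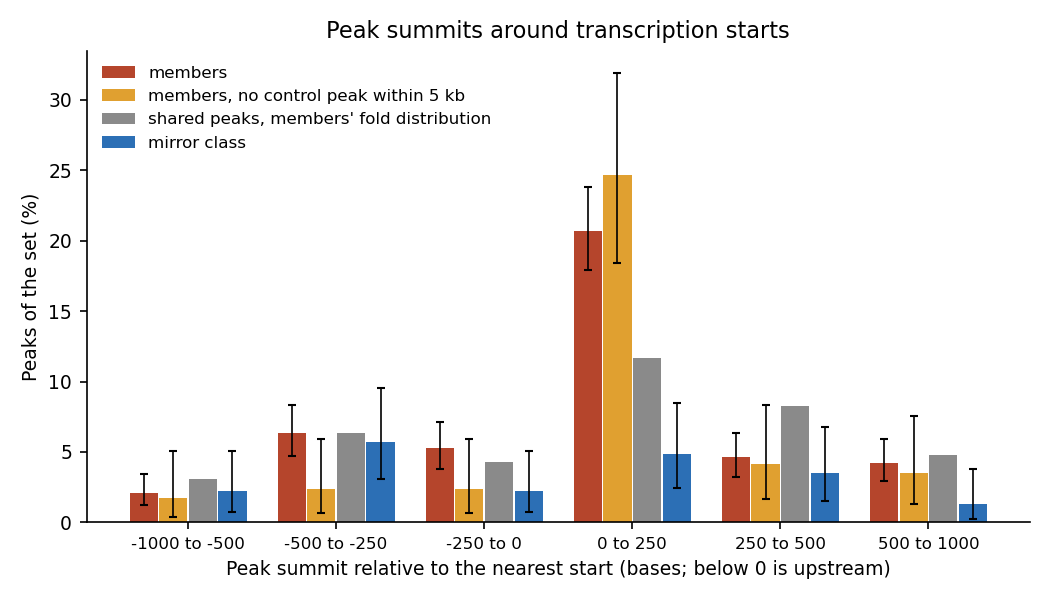
Percentage of each set of peaks (y) whose summit falls in each bin of distance from the nearest start in bases (x, below 0 upstream), for members, isolated members, fold-weighted shared peaks and the mirror class; bars with lines carry exact 95% intervals for counting error. Members stand at 20.7% and isolated members at 24.7% in the bin from 0 to 250 bases, against 11.7% and 4.82% for the other sets.

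Promoters that members overlapped were rich in CpG. Members overlapped 235 promoter windows of 300 bases (250 before to 50 after a start), of 218 genes, and 57 of these windows were also overlapped by a shared peak. Their median GC content was 66.0%, against 53% for all 31396 windows, 62.3% for windows under a shared peak and 61.3% for those under a shared peak of fold 5 to 6. CpG-rich windows, with a GC content of at least 50% and an observed to expected CpG ratio of at least 0.6, made up 82.6% (77.1 to 87.2) of members' promoters. The share was 70.7% (68.3 to 73.1) under shared peaks of fold 5 to 6, 34.1% of all windows, and 66.7% of 21 under mirror peaks. For the 41 windows under isolated members it was 65.9% (49.4 to 79.9), and for the 184 under flanking members 88.0% (82.5 to 92.4). GC content of the 2 libraries' reads was not analysed here, and its part in these shares was not tested.

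Of 20 motifs searched on both strands, the GC box was the most common under members. The GC box (GGGCGG), bound by SP factors, was in 74.9% (68.8 to 80.3) of members' windows, 63.4% of those under shared peaks of fold 5 to 6 and 36.0% of all. The NRF1 motif (GCGCNTGCG) was in 18.7% (13.9 to 24.3), 14.3% and 6.37% respectively. Its share was 21.2% under flanking members but 2 of 41 windows under isolated ones (4.88%, 0.596 to 16.5). Fewer members' windows held the AP-1 motif (TGANTCA), at 2.13% (0.694 to 4.90) against 5.24% and 7.84%. ETS (CCGGAAG) was in 16.2%, 20.2% and 9%, CCAAT in 37.0%, 38.5% and 37.3%, and the TATA box (TATAAA) in 4.68%, 4.66% and 13.6%. The ZBTB33 letters shown at Agbl3 were in 3 members' windows (1.28%), against 2.26% and 0.956%. For NRF1, ETS, CCAAT, TATA and ZBTB33 the members' interval held the value under shared peaks of fold 5 to 6, while for the GC box and AP-1 it did not. Against windows under all shared peaks of fold at least 5 the interval held the AP-1 value, 4.10%, and did not hold those of the GC box (64.8%), ETS (22.5%) and YY1 (8.41%). The other 13 motifs were CRE/ATF (TGACGTCA), the E-boxes CAGCTG and CACGTG, the SOX motifs ACAATG and ACAAAG, NFI (TTGGCA), POU (ATGCAAAT), TEAD (GGAATG), RBPJ (TGGGAA), YY1 (AAGATGG), IRF (GAAANNGAA), ATF4 (TGATGCAA) and homeodomain (TAATTA). They were in 0.828% (ATF4) to 25.3% (RBPJ) of all windows, and in each case the members' interval also held the value under shared peaks of fold 5 to 6.

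Genes with a member at an end were mostly genes already acetylated in the control culture. Of 33073 autosomal genes, 472 had a member within 1 kb of an end (1.43%), and 349 of the 472 (73.9%, 69.7 to 77.8) also had a control peak at an end. Among all autosomal genes 40.7% had one. A member was at 2.59% of the genes with a control peak at an end and at 0.628% of those without. No control peak lay anywhere in the gene or within 1 kb for 79 of the 472 (16.7%). Protein-coding genes made up 79.9% of the 472 against 62.5% of all. Counting members anywhere in a gene or within 1 kb gave 807 genes (2.44%).

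The marker check of the cell type used gene ends with a peak in both lists. They numbered 20 of 24 for neural stem cells, 9 of 12 for astrocytes, 4 of 11 for oligodendrocytes, 3 of 18 for neurons, 2 of 8 for fibroblasts, 1 of 9 for microglia, 1 of 7 for endothelial cells and 0 of 7 for pluripotent cells. Members were at ends of 2 of the 24 neural stem cell genes. Msi2, an RNA-binding protein of stem cells, had a pair of members of fold 5.21 each at its 5′ region, and Nfia, a gliogenic transcription factor, had 1 of 5.04, with a control peak of 9.89 at 2339 bases. Inside Egfr and Fgfr1, growth factor receptors of these cells, lay members of 5.21 and 5.88. No member was in or near a gene of the astrocyte, neuron, microglia, endothelial, fibroblast or pluripotency lists, and 1, of fold 5.04, lay inside the oligodendrocyte gene Mbp.

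Gene lists of pathways held few members each. Of 512 listed autosomal genes, 23 had a member at an end and 49 in or near the gene; 13 of the 24 lists had none at an end. These counts stand beside the 1.43% and 2.44% of all genes; the lists were not matched to all genes on acetylation, and nothing particular to a list is read from them. Wnt genes had 3 of 37 at an end: the co-receptor Lrp6 (7.39, with a control peak of 4.40 at 124 bases), the receptor Fzd2 (5.21) and Lgr4 (5.04), an R-spondin receptor whose nearest control peak was 26004 bases away. The Fzd2 member had a control peak of 7.67 at 175 bases. Of 21 Notch genes the receptor Notch2 had a member at an end (5.54), and the DNA-binding effector Rbpj (6.04) and co-activators Maml2 (5.54) and Maml3 (5.28) had members inside. The Rbpj member covered an annotated start within the gene. Control peaks of 6.46 and 9.08 lay 244 and 150 bases from the Notch2 and Rbpj members. Among 37 BMP and TGF-beta genes, the receptor Tgfbr1 and the signal transducer Smad5 (5.21, with a control peak of 4.84 at 212 bases) had members at an end.

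Immediate-early genes, which respond to growth factors and stress, had 3 of 24 at an end. They were Ier2 (6.21), the phosphatase Dusp1 (5.88) and Arc (5.71), each with a control peak of 6.46 to 8.47 within 641 bases. Stress-response genes had Ern1 and its splicing target Xbp1 (5.21), 2 of 20, and interferon genes had the regulators Irf7 (5.21) and Irf1 (5.04), 2 of 23. Control peaks of 6.97 and 9.08 lay 225 and 332 bases from the Xbp1 and Irf1 members. For Irf7 the nearest had 3.43 at 5636 bases. Polycomb genes and other chromatin partners had 3 of 30: Bmi1 of PRC1 (7.22), Suz12 of PRC2 (5.04) and the insulator protein Ctcf (5.04). Control peaks of 6.66, 11.3 and 9.89 lay 269, 179 and 213 bases from these members. In receptor tyrosine kinase signalling Erbb3 (5.54) and Erbb2 (5.04), which pair as neuregulin receptors, made 2 of 30. The start nearest to the Erbb3 member was that of another gene, Pa2g4, 418 bases away, and a control peak of 13.92 lay at 401 bases. For the Erbb2 member the nearest control peak had 5.04 at 3337 bases. From 30 cell cycle genes only the transcription factor E2f2 (6.88) had a member at an end, with a control peak of 4.64 at 218 bases. Viral transduction and selection differed between the cultures, and their part in the stress and interferon members cannot be told apart from that of the deletion.

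Some genes of the classes that Smchd1 is known to silence held members. Of 45 imprinted genes 2 (4.44%) had a member at an end and 4 (8.89%) in or near the gene, beside 1.43% and 2.44% of all genes. Those at an end were Copg2 (6.17, with a control peak of 5.25 at 187 bases) and the antisense transcript Airn (5.33). The Airn member also lies inside Igf2r, at chr17:12742174-12742660, 419 bases from a control peak of 4.80. Gnas had a member inside (5.54), 70 bases from an annotated start and 125 bases from a control peak of 5.25. At the clustered protocadherins, cell-surface adhesion proteins of neurons, no list gene of 14 had a member at an end and 6 (42.9%) had one in or near the gene. Their gene bodies overlap, and the 6 rest on 2 members, of 5.37 in the alpha cluster, 909 bases from a control peak, and 5.21 in the gamma cluster, 54319 bases from one. Axon guidance genes had 0 of 38 at an end, with Sema5a (6.04), Ephb1 (5.21) and Ntn1 (5.21) holding members inside. Of 35 ion channel and receptor genes only Kcnn3, a calcium-activated potassium channel, held members, 2 of them, at 6.04 and 5.37. The lists of Hedgehog, p53 target and widely expressed reference genes had no member.

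The 54 members over 50 kb from any gene end (6.92%) compare with 6.76% of fold-weighted shared peaks. The strongest was inside Zfhx3, a homeobox transcription factor, with a fold of 7.72 at 61709 bases from the end and 154 bases from a control peak of 7.26. Sox6, a transcription factor of glial and neuronal development, held the next (6.33), followed by a peak at chr5:85771934-85772181 (6.21) between genes and by Tafa5 (6.21) and Sema5a (6.04). The one on chromosome 5 was 85756 bases from the control list and 86 bases from another deleted peak. The other 4 had a control peak within 1 kb. Gene ends are those of the whole gene, and annotated starts inside it can lie nearer. The Tafa5 member was 239 bases from such a start and the Zfhx3 member 40675 bases. Genes with most members inside were Stard13, with 3 (5.33, 5.24 and 5.04), and 22 genes with 2 each, such as Chd1l (6.04 and 5.71), Cdh4 (5.54 and 5.21) and Dnm3 (5.33 and 5.17).

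Few members lay within 10 kb of another member. No such count is given here for shared or mirror peaks, so it has no reference. Joining members with gaps of at most 10 kb gave 761 groups, of which 742 were single peaks and 19 were pairs. None held 3 or more. The pairs of highest fold were at Ptov1 (8.23 and 5.04), at chr2:71636320-71639320 (6.88 and 5.04), at Tgfbr1 (6.72 and 5.54), at Tchh (6.21 and 5.54) and at Zmiz1os1 (6.21 and 5.14). The Zmiz1os1 pair alone of these 5 had a control peak within its span. Over the 19 chromosomes the share of deleted peaks that were members ran from 2.85% on chromosome 19 to 5.25% on chromosome 5, with a median of 4.11%. The exact interval of every one of the 19 held the pooled 4.13%, and on every one the share was above that of the mirror class.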

How the data were processed

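Processing by the submitters used bcl2fastq, Bowtie 0.12.9 and the build mm10, per the submitters' processing notes. Peak calling by the authors used MACS2 2.1.0.20140616 with 1 input for each immunoprecipitation and a q-value limit of 0.05, keeping 1 tag per position and down-sampling the larger library, per the file headers. Every deposited peak comes with its length, a summit pileup signal, a fold enrichment, and p and q as −log10 values. The fold is a ratio to the caller's background and is not scaled between libraries. For most peaks of fold at least 5 that background was the genome-wide value.

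The 780 members were found in Python 3.11.15 with pandas 2.3.3 and SciPy 1.17.1. Members, gene lists and motifs were chosen with earlier results of these data known. Local background was recovered as (pileup + 1) / fold − 1 and called lowest within 2% of the list's minimum. Shared peaks were weighted to the members' distribution over fold bins of 0.5. Genes came from RefSeq on GRCm38.p6, without strand; 512 of 526 listed genes were on its chromosomes 1 to 19, 10 were on others and 4 did not match. Starts came from a RefSeq table of 32851 promoter windows, which has none for chromosome 18, where 23 members lie.

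Shares have exact Clopper-Pearson 95% intervals, for counting error alone; peaks close together are not independent. With 1 library per group no test between conditions was made and leaving out a replicate was impossible. Named were the 10 members of highest fold, the 10 highest at gene ends, the 5 highest over 50 kb from a gene end, the 10 genes with most members (shown in part), listed genes with a member at an end, 3 peaks on either side of the threshold, the 5 leading groups and, from up to 8 promoters, those printed. Other names were chosen after their values were seen. A withheld item is not reported here. Overlap and distance calculations were checked on simulated data. Alternatives were fold thresholds of 4 and 6, −log10 q of at least 10, other overlap rules, depth scaling, gene-end windows of 0 and 2500 bases, coding genes alone and group gaps of 5 and 20 kb.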

Additional observations from a re-analysis of the deposited data

Results flagged for a closer look

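Peaks outside chromosomes 1 to 19, which the rule leaves out, met its other conditions in the deleted list and not in the control list. On the X chromosome, 19 of 252 deleted peaks of fold at least 5 had no control peak (7.54%, 4.60 to 11.5), against 0 of 193 control peaks with no deleted peak. The highest were at 4933407K13Rik (7.50), 9530051G07Rik (6.55) and Tmem29 with Apex2 (6.38). They lay 986, 284 and 18912 bases from a control peak. Gpm6b, a neural membrane protein, held 2 (6.00 and 5.54), at 18716 and 621 bases from one. The X peaks thus also include peaks beside acetylation called in the control list. The X interval lies above the autosomal 4.13%. On unplaced sequence 1 of 3 deleted peaks had no control peak, against 0 of 2 control peaks.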

How the results depend on the processing

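The number of members followed the thresholds: 5884 at a fold of at least 4, 142 at 6, 268 with no control peak within 1000 bases, 1982 when a peak counted as overlapped only if 50% of it was covered, and 20 with lowest-background peaks left out. It was 597 after depth scaling and 802 (247 for the mirror class) with fold rounded to 2 decimals, the latter chosen after seeing the data. A −log10 q of at least 10 could remove no member, since the lowest was 10.9. The mirror class held 2914, 13 and 71 peaks at folds of 4 and 6 and with no deleted peak within 1000 bases. Members per mirror peak, for which the alternatives were chosen after seeing the data, moved from 3.32 to 2.02 at fold 4, 10.9 at fold 6 and 5.18 with no peak within 5000 bases, and were 3.77 with none within 1000 bases and 2.54 after depth scaling; the value was above 1 in each. The share at gene ends, 49.0%, was 6.03% with a window of 0 bases, 58.5% with 2500, 43.3% for coding genes and 36.9% for members with no control peak within 1000 bases. Inside genes it was 67.1% for coding genes, and shared peaks without weighting had 62.0% at gene ends. Listed genes with a member were 49 when the whole gene counted. Groups numbered 765 and 755 at gaps of 5 and 20 kb. The fold, overlap and window changes follow from the construction of each alternative. No paired analysis was possible because each group had 1 library; no replicate could be left out, and culture-to-culture spread is unknown. Depth limits weak peaks most: a region of the control library under a pileup of 12 could not be called, so a missing control peak does not show missing acetylation.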
